A study of Mus musculus with 8 samples.

Results

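The genes described here encode receptors of selective autophagy and mitophagy: Sqstm1, Nbr1, Optn, Tax1bp1, Calcoco1, Tollip, Ncoa4, Bnip3, Bnip3l and Fundc1. They were chosen by gene symbol, and all 10 were found among the 21080 symbols with a coverage value. The RNA came from bone marrow-derived macrophages (BMDMs) of C57BL/6 mice, grown in culture with M-CSF, in 4 groups of 2 samples. Each sample pooled cells of 2 mice. The study compared macrophages with and without Nudt21, an RNA-binding subunit of the mRNA 3′ end processing machinery. In the Nudt21-cKO groups (Nudt21 fl/fl LysM Cre, hereafter cKO), Cre recombinase driven by LysM removed exons 2 and 3 of Nudt21 in myeloid cells. The WT groups were sex-matched littermates that carried LysM Cre as well, so that Cre is shared by all groups. WT and cKO were each sampled at 0 h, without stimulation, and after 50 ng/ml IFNγ overnight followed by 50 ng/ml LPS for 4 h. The ages of these mice are not stated in the sources used here.

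In selective autophagy a receptor holds a cargo with one surface and an ATG8 protein (the LC3 and GABARAP families) on the growing autophagosome membrane with another, so that the cargo is enclosed and carried to the lysosome. Sqstm1 (p62), Nbr1, Optn (optineurin), Tax1bp1 and Tollip bind ubiquitin on aggregates, bacteria or damaged organelles, Calcoco1 serves the turnover of endoplasmic reticulum and Golgi, and Ncoa4 delivers ferritin. Bnip3, Bnip3l (Nix) and Fundc1 sit in the outer mitochondrial membrane and mark mitochondria for mitophagy without ubiquitin. In macrophages these receptors are known for the handling of intracellular bacteria, protein aggregates, iron and mitochondria during inflammatory activation.

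Nudt21 binds the sequence UGUA, written TGTA in DNA, so the annotated 3′UTRs of the receptor genes were searched for it. Each of the 10 had at least 1 TGTA, with a median of 7.30 per 1000 bases. Among 10811 genes with a 3′UTR of at least 100 bases, 89.7% had at least 1 and the median was 5.18 per 1000 bases. Counts ranged from 4 in Nbr1 (3′UTR of 1193 bases) and Calcoco1 (592 bases) to 14 in Tollip (2784 bases). Per 1000 bases, Nbr1 (3.35), Ncoa4 (3.45), Bnip3l (4.42) and Tollip (5.03) lay under the median of 5.18. Sqstm1 (7.84) and the remaining receptor genes lay above it. The TGTA nearest the 3′ end of the transcript used that leaves 10 bases after it is shown, in capitals, for the 4 genes on which the genotype results below turn. These 24-base windows are on the strand of the gene in GENCODE M21 on GRCm38.
Sqstm1, chr11:50200168-50200191, minus strand: gtaagtaaccTGTAataaaatggc
Nbr1, chr11:101581048-101581071, plus strand: tccttctgctTGTAttgaaattga
Bnip3l, chr14:66985269-66985292, minus strand: tcatgtaactTGTAgctataaaca
Ncoa4, chr14:32179543-32179566, plus strand: ggtcaactctTGTAcagagtgttc
In Bnip3l this TGTA begins 44 bases from the annotated 3′ end of the gene, in Ncoa4 303 bases and in Nbr1 894 bases. In Sqstm1 it begins 30 bases from the end of the transcript used, which itself ends 786 bases inside the annotated gene. A match is a description of the sequence and does not show that Nudt21 binds there.

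The gene body of Sqstm1 spans chr11:50199366-50210827 on the minus strand, with 8 exons in the transcript used. Nbr1 lies on the same chromosome at chr11:101552149-101581951 (plus strand, 24 exons). Optn lies at chr2:5020642-5064051, Tax1bp1 at chr6:52713729-52766780, Calcoco1 at chr15:102706777-102722178 and Tollip at chr7:141874813-141918507. Ncoa4 lies at chr14:32159865-32179855, and Bnip3l is on the same chromosome at chr14:66985239-67008877. Bnip3 lies at chr7:138890836-138909519 and Fundc1 at chrX:17556564-17572325.

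The promoters of the receptor genes were searched on both strands for a pair of motifs, from 250 bases before to 50 after each RefSeq start (GRCm38). The letters CACGTG, core of the E-box bound by lysosome and autophagy regulators such as TFEB, stood in 1 of the 13 receptor promoters (Bnip3) and in 7.15% of 32851 promoters. The letters TGACNNNGC, core of the antioxidant response element bound by NRF2, stood in 2 of the 13 (Tax1bp1 and Ncoa4) and in 12.4% of all. The matches are shown in capitals, since NRF2 targets and the contrast of Bnip3 with Bnip3l are followed below, and the motifs do not overlap each other there.
Bnip3, chr7:138909601-138909622, minus strand: acgcgccgCACGTGccacacgc
Tax1bp1, chr6:52713952-52713976, plus strand: ctccgtggTGACGAAGCtctctttc
Ncoa4, chr14:32165737-32165761, plus strand: gcggggcgTGACCTGGCcggtaggg

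Values are coverage, the mean number of reads over each base of a gene, so levels can be compared between genes. Summed over genes, coverage was 14950347 to 17954882 per sample, and the cKO mean was 1.158 times that of WT at 4 h and 1.089 times at 0 h. Nudt21 coverage was 718 and 641 in WT against 158 and 172 in cKO at 0 h, and 547 and 575 in WT against 142 and 115 in cKO at 4 h. Each cKO sample was thus below each WT sample, as the labels say. All 10 macrophage markers were detected in every sample, with a summed coverage of 131428 to 140827 at 0 h and, at 4 h, 70262 and 71589 in WT and 75523 and 80084 in cKO. Its members moved apart between genotypes. At 0 h 3 of 10 were called lower in cKO, among them Adgre1 and Fcgr1. The 1 called higher was Cd68, from a mean of 44206 to 71406. Before centring their median log2 difference was -0.20, against 0.10 for all genes, and after centring 4 were lower and 1 higher. At 4 h 2 were called higher (Cd68 and Lyz2) and 0 lower. Before centring their median was -0.08, against 0.31 for all genes, and after centring 1 was higher and 3 lower. Of the other marker lists, the neutrophil list was the most abundant (18132 to 37178), led by S100a9, and 8 of its 10 markers were present in all 8 samples, among them S100a8 (4761 to 9570), Ngp (2217 to 5797), Ltf (506 to 2199) and Elane (90.2 to 446). Ly6g and Retnlg were at 0 in 3 and 2 of the 8 samples and reached at most 7.37 and 48.3. The summed coverage of the neutrophil list was higher in cKO at each time, without overlap (28023 and 37178 against 24170 and 26817 at 0 h, 22828 and 25934 against 18132 and 22388 at 4 h). Its single markers did not follow the sum. In cKO 0 of 10 were called higher and 1 lower at 0 h (8.99% and 5.61% of all genes). Calls at 4 h were 1 higher and 1 lower (20.8% and 4.17%). Centring left 0 higher and 1 lower at 0 h, and 0 higher and 2 lower at 4 h. Lymphocyte, fibroblast and erythroid and mast lists reached at most 221, 222 and 21.6, and Cd3e was at 0 in 7 of the 8 samples. Most of the lymphocyte sum was Cd4 (a mean of 185.1 in WT and 143.2 in cKO at 0 h), and the 4 lymphocyte markers tested at 0 h had a median log2 difference of 0.14, with 0 called. Between genotypes the 5 fibroblast markers tested had a median difference of 1.33 (log2, cKO minus WT) at 4 h and 1.02 at 0 h, with 1 and 2 called higher, while their summed coverage overlapped between genotypes (16.8 to 92.8 in WT and 80.7 to 116.3 in cKO at 4 h, 87.6 to 192.7 and 154.8 to 222 at 0 h). The summed dendritic cell list went from 31.8 to 54.7 at 0 h to 1040 to 1952 at 4 h, where it was mostly Clec9a. Its sum at 4 h was lower in cKO (1040 and 1073) than in WT (1229 and 1952) without overlap. Among the 5 markers tested there, 1 was called higher in cKO and 1 lower (20.8% and 4.17% of all genes).

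At 0 h Sqstm1 had the highest coverage of the receptor genes in WT, 8463 and 8709, followed by Ncoa4 (4954 and 5715), Tax1bp1 (3086 and 3481), Bnip3l (2355 and 2842) and Nbr1 (1699 and 1873). Below these came Fundc1, Tollip, Calcoco1, Bnip3 and Optn, from 896 down to 430, in which Tollip and Calcoco1 overlapped. In cKO at 0 h the order was the same at the top, but Ncoa4 and Tax1bp1 overlapped. At 4 h the order differed. Sqstm1 stayed at the top, Tax1bp1 and Optn came next in both genotypes, and Nbr1 and Calcoco1 were the lowest. Nbr1 and Calcoco1 overlapped in WT (111 and 128 against 101 and 120) and did not in cKO (225 and 251 against 155 and 143).

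**Figure D1:**
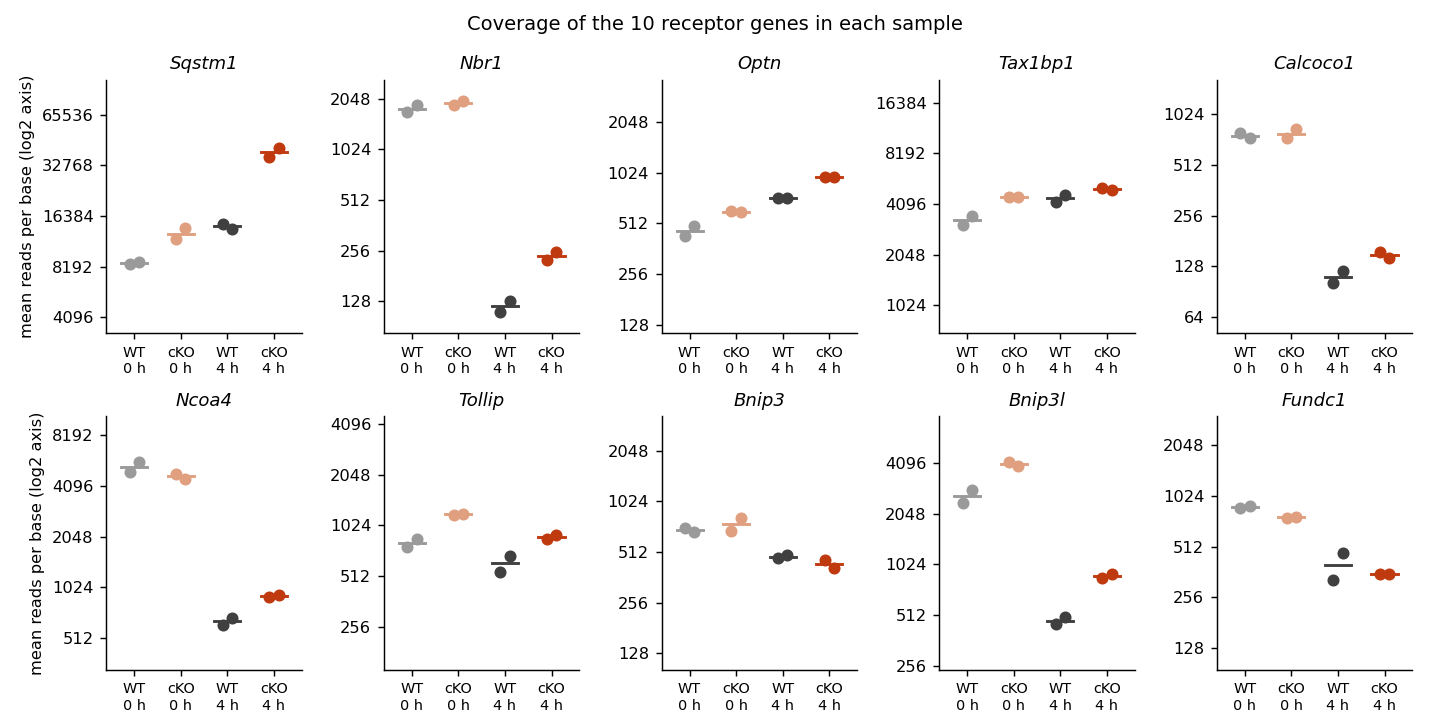
Coverage (mean reads per base, log2 axis) of each receptor gene, with 1 point per sample and a line at the mean of the 2 samples of a group. All panels span the same number of doublings. Sqstm1 in cKO at 4 h lies above all its other samples. Nbr1, Calcoco1, Ncoa4, Bnip3l, Bnip3 and Fundc1 are lower in every 4 h sample than in every 0 h sample.

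Sqstm1 made up more of the summed coverage of the 10 genes at 4 h than at 0 h, and more in cKO than in WT. Its share was 35.1% and 33.1% in WT against 38.2% and 42.0% in cKO at 0 h, and 66.2% and 62.0% in WT against 78.9% and 80.8% in cKO at 4 h. Summed over the 10 genes, coverage was 22240 and 22237 in WT against 46798 and 51220 in cKO at 4 h. Without Sqstm1 the sums were 7522 and 8442 in WT against 9866 and 9821 in cKO. Among all genes, Sqstm1 ranked 248 by mean coverage in WT and 164 in cKO at 0 h, and 144 in WT and 55 in cKO at 4 h. The ratio of Sqstm1 to its structural relative Nbr1 was 4.98 and 4.65 in WT against 6.37 and 6.96 in cKO at 0 h, and 133 and 108 in WT against 164 and 165 in cKO at 4 h.

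**Figure D2:**
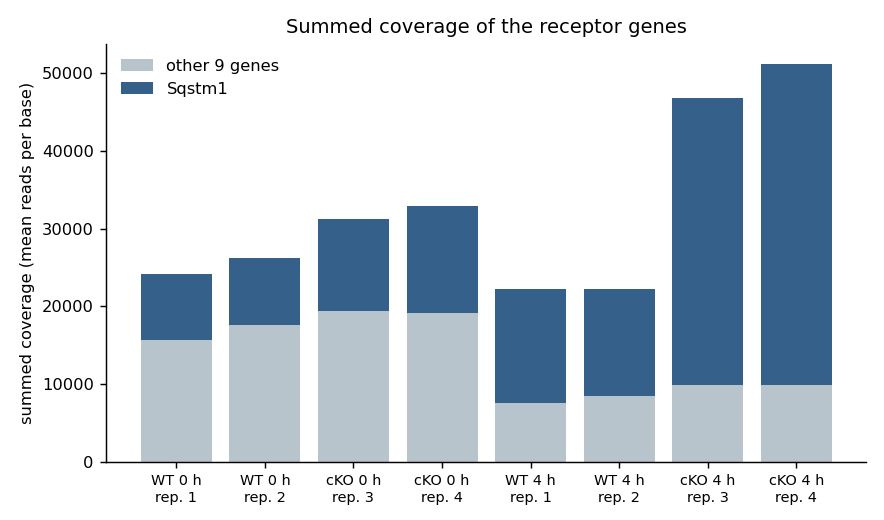
Summed coverage of the receptor genes in each sample (bars, mean reads per base, axis from 0), with Sqstm1 in blue and the other 9 genes in grey. The cKO samples at 4 h reach 46798 and 51220, of which Sqstm1 makes 78.9% and 80.8%.

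Genotypes were compared with limma at each time. Genes called here passed a 1.5-fold change and had a p under 0.05 before adjustment. At 4 h, 3 of the 10 receptor genes, Sqstm1, Nbr1 and Bnip3l, were called higher in cKO and 0 lower, against 20.8% of all 14950 genes tested called higher and 4.17% lower. The other 7 were not called. At 0 h only Bnip3l was called, higher in cKO, where 8.99% of 16251 genes were called higher and 5.61% lower. At 4 h the cKO samples did not overlap the WT samples and were higher for 8 of the 10 genes (51.1% of all genes) and lower for 1 (14.9%). At 0 h they were higher for 6 (36.1%) and lower for 2 (20.9%). After adjustment Sqstm1 was the 1 gene with a p under 0.05 at 4 h, where 3.33% of all genes were higher by that rule. That adjusted p was above 0.05 under most other settings, as given for Sqstm1. The median gene was itself shifted, by 0.31 on the log2 scale at 4 h and 0.10 at 0 h, so results are also given after centring every sample on its median. After centring, 2 of the 10 were called higher at 4 h (10.4% of all genes) and 0 lower (9.9%), and at 0 h 0 were called higher (7.25%) and 0 lower (6.98%). Of the 7 genes not called at 4 h, Optn (0.08), Calcoco1 (0.10), Ncoa4 (0.17) and Tollip (0.20) had small positive centred values there and Tax1bp1 (-0.15), Bnip3 (-0.48) and Fundc1 (-0.49) negative ones. At 0 h the centred values ran from -0.30 (Fundc1) to 0.55 (Bnip3l), and Calcoco1 turned from 0.04 to -0.05. Summed coverage and the neutrophil sum were higher in cKO, while single neutrophil markers were called in both directions at 4 h. Macrophage markers moved in both directions, and the fibroblast markers had a higher median in cKO. The dendritic cell sum, mostly Clec9a, and the erythroid and mast sum were lower in cKO at 4 h. Cd4 was lower in cKO at 0 h. The part of these differences in the genotype results was not tested. In bulk RNA fewer cells of a type and less RNA per cell cannot be told apart.

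Sqstm1 links ubiquitinated cargo to LC3 and also binds Keap1, the inhibitor of NRF2. Its coverage at 4 h was 14718 and 13795 in WT against 36932 and 41399 in cKO, without overlap. It rose by 1.46 on the log2 scale (standard error of the log2 fold change, SE, 0.12), a 2.74-fold difference. Its limma p was 0.0470 after Benjamini-Hochberg adjustment over all genes tested. Centred, the log2 fold change was 1.12 and it was still called. The adjusted p of Sqstm1 in limma was 0.0375 with a pseudocount of 1 and 0.00346 in a fit of all 8 samples, but above 0.05 with no filter (0.0661), median-centring (0.0909), equal total coverage (0.0666) and quantile normalization (0.0563). With each sample left out in turn it was 0.0975 to 0.320. At 0 h coverage was 8463 and 8709 in WT against 11941 and 13835 in cKO, and the groups again did not overlap. The log2 fold change of 0.58 (SE 0.13, adjusted p = 0.167 in limma) fell just short of the 1.5-fold limit, with a fold of 1.497. Without cKO replicate 3 it was 0.69 and passed it.

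Nbr1 is a relative of Sqstm1 with roles in the autophagy of aggregates and peroxisomes. At 4 h it had a coverage of 111 and 128 in WT against 225 and 251 in cKO. It rose by 1.0 (SE 0.14, adjusted p = 0.0629 in limma), and by 0.66 after centring, which was also called. At 0 h the cKO samples (1876 and 1988) lay just above the WT samples (1699 and 1873). That difference was 0.11 (SE 0.12, adjusted p = 0.602 in limma).

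Optn, a ubiquitin-binding receptor activated by the kinase TBK1, had a coverage of 722 and 729 in WT against 962 and 971 in cKO at 4 h, and of 430 and 491 in WT against 604 and 600 in cKO at 0 h. The cKO samples were above the WT samples at each time. On the log2 scale the difference was 0.41 (SE 0.10, limma adjusted p = 0.0967) at 4 h and 0.39 (SE 0.12, limma adjusted p = 0.235) at 0 h, under the 1.5-fold limit at both.

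Tax1bp1, a ubiquitin-binding receptor that also restrains NF-κB signalling with A20, had a coverage of 4191 and 4660 in WT against 5112 and 4977 in cKO at 4 h, and of 3086 and 3481 in WT against 4490 and 4495 in cKO at 0 h. At each time the cKO samples were the higher. They differed by 0.19 (SE 0.11) at 4 h, which turned to -0.15 after centring, and 0.45 (SE 0.12) at 0 h. It was not called at either time.

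Calcoco1, a receptor for endoplasmic reticulum and Golgi, had a coverage of 101 and 120 in WT against 155 and 143 in cKO at 4 h, where the cKO samples were higher. The log2 fold change was 0.44 (SE 0.14, adjusted p = 0.153 in limma). At 0 h the genotypes overlapped, with 791 and 745 in WT against 742 and 836 in cKO.

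Tollip, a ubiquitin-binding adaptor of endosomes that acts in Toll-like and interleukin-1 receptor signalling, had a coverage of 541 and 673 in WT against 853 and 901 in cKO at 4 h, and of 765 and 852 in WT against 1183 and 1190 in cKO at 0 h. The cKO samples were higher at both times. The log2 fold changes of 0.54 (SE 0.16) at 4 h and 0.56 (SE 0.12) at 0 h were just under the limit of 0.585. Without WT replicate 2 the gene was called at each time, with 0.70 at 4 h and 0.63 at 0 h.

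Ncoa4, the receptor that takes ferritin to the lysosome, had a coverage of 4954 and 5715 in WT against 4855 and 4487 in cKO at 0 h, where cKO was lower. At 4 h it was 614 and 668 in WT against 893 and 925 in cKO, where cKO was higher. Neither difference was called, with log2 fold changes of -0.19 (SE 0.14, adjusted p = 0.493 in limma) at 0 h and 0.50 (SE 0.11, adjusted p = 0.0896 in limma) at 4 h.

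Bnip3l is the mitophagy receptor known for clearing mitochondria from maturing red cells. It had a coverage of 449 and 496 in WT against 852 and 890 in cKO at 4 h, and of 2355 and 2842 in WT against 4165 and 3927 in cKO at 0 h, without overlap at either time. It rose by 0.88 (SE 0.11, fold 1.85, adjusted p = 0.0587 in limma) at 4 h and by 0.64 (SE 0.15, fold 1.56, adjusted p = 0.173 in limma) at 0 h. Centred, the values of 0.55 at both times were under the limit. At 0 h the call was also lost without WT replicate 1 (0.51), cKO replicate 3 (0.60) or cKO replicate 4 (0.69). The summed erythroid and mast markers were 6.46 to 11.4 at 4 h and 10.2 to 21.6 at 0 h.

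Its paralogue Bnip3, a mitophagy receptor induced by hypoxia, was not called at either time. Bnip3 coverage was 469 and 494 in WT against 458 and 411 in cKO at 4 h, where cKO was slightly lower, and 712 and 672 in WT against 683 and 813 in cKO at 0 h, where they overlapped. The log2 fold change was -0.15 (SE 0.12) at 4 h and 0.11 (SE 0.14) at 0 h. The ratio of Bnip3l to Bnip3 was 3.31 and 4.23 in WT against 6.10 and 4.83 in cKO at 0 h. At 4 h it was 0.957 and 1.01 in WT against 1.86 and 2.16 in cKO, so in WT the pair had nearly equal coverage.

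Fundc1, a mitophagy receptor controlled by phosphorylation, had a coverage of 874 and 896 in WT against 764 and 771 in cKO at 0 h, where cKO was lower, with a log2 fold change of -0.21 (SE 0.10, adjusted p = 0.348 in limma). At 4 h the cKO samples (355 and 351) lay between the WT samples (324 and 473). The log2 fold change of -0.15 there turned to 0.13 without WT replicate 2.

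**Figure D3:**
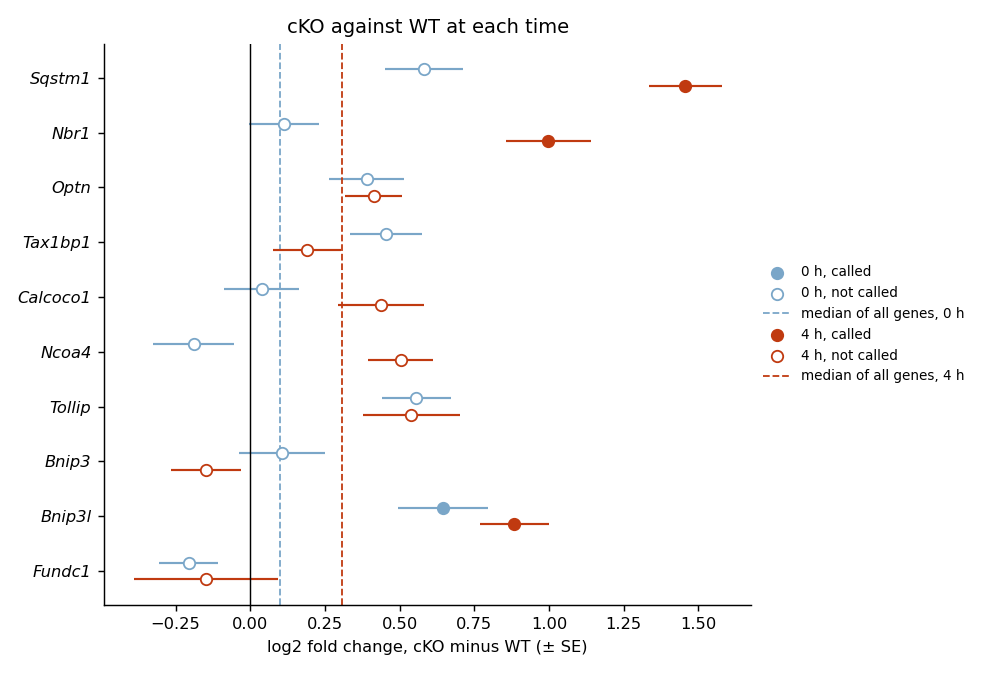
Log2 fold change of cKO against WT for each receptor gene at 0 h (blue) and 4 h (red), with standard errors as bars. Filled points were called, and dashed lines give the median of all genes (0.10 and 0.31). Sqstm1 and Nbr1 are the genes that lie farthest to the right at 4 h.

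The change of the genotype effect from 0 h to 4 h was tested with an interaction term in a fit of all 8 samples. Sqstm1, Nbr1 and Ncoa4 were called with a larger difference of cKO from WT at 4 h, 3 of the 10 genes, against 13.5% of 16284 genes called in that direction. 0 of the 10 were called in the other direction, against 4.05% of all. The change of the genotype effect was 0.87 for Sqstm1 (SE 0.17, limma adjusted p = 0.0720), 0.88 for Nbr1 (SE 0.18, limma adjusted p = 0.0749) and 0.69 for Ncoa4 (SE 0.17, limma adjusted p = 0.0989). Median-centring left 0.61, 0.62 and 0.43, and Ncoa4 was then no longer called, so that 2 were called higher (7.47% of all genes) and 0 lower (8.85%). With quantile normalization Nbr1 (0.58) and Ncoa4 (0.51) were under the limit and Sqstm1 (0.62) was called. No receptor gene had an adjusted p under 0.05, which 2.28% of all genes had in that direction. Bnip3l, higher in cKO at both times, had an interaction of 0.24 (SE 0.18, limma adjusted p = 0.513), and Optn and Tollip had 0.02 and -0.02. The interaction uses the samples of both genotype comparisons, so it is not a separate set of data.

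Stimulation was compared within each genotype. The times came from separate tables of unscaled coverage, and the median gene moved by -1.27 in WT and -1.05 in cKO. In WT 2 of the 10 receptor genes were called higher at 4 h and 5 lower, against 11.9% of 16002 genes higher and 55.1% lower. In cKO 2 were called higher and 6 lower, against 13.7% of 16223 genes higher and 53.2% lower. With centring, 5 were higher and 4 lower in WT and 4 were higher and 4 lower in cKO, where 33.5% and 32.7% of all genes were higher and 22.4% and 23.2% lower. The summed dendritic cell list, mostly Clec9a at 4 h, was higher at 4 h without overlap in either genotype. Among its 6 markers, 3 were called higher and 1 lower in each genotype. The summed macrophage, neutrophil, lymphocyte and erythroid and mast lists were lower at 4 h, without overlap in either genotype. The fibroblast sum was lower without overlap in cKO (154.8 to 222 at 0 h, 80.7 to 116.3 at 4 h) and overlapped in WT. The lymphocyte list, mostly Cd4, went from 192.7 to 220.5 down to 18.8 to 28.8 in WT and from 161.8 to 174.2 down to 17.1 to 33.5 in cKO. The part of these lists in the changes was not tested. WT and cKO share no sample in these comparisons, but each sample also enters a genotype comparison, and the difference between the stimulation effects is the interaction above.

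Sqstm1 and Optn rose with stimulation in both genotypes. Sqstm1 rose by 0.73 (SE 0.13, limma adjusted p = 0.0182) in WT and by 1.61 (SE 0.13, limma adjusted p = 0.00408) in cKO. Optn rose by 0.66 (SE 0.14, limma adjusted p = 0.0298) in WT and by 0.68 (SE 0.08, limma adjusted p = 0.00746) in cKO. With quantile normalization the rise of Sqstm1 in WT was 0.52, under the limit. The Optn call in WT was lost when WT replicate 1 at 0 h (0.56), replicate 1 at 4 h (0.67) or replicate 2 at 4 h (0.65) was left out. The rises were larger after centring, 2.18 and 2.81 for Sqstm1 and 2.11 and 1.89 for Optn. Tax1bp1 had 0.43 in WT and 0.17 in cKO, neither called, and 1.88 and 1.37 after centring, both called.

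Nbr1, Ncoa4, Calcoco1 and Bnip3l fell in both genotypes, and kept that direction and call after centring. Nbr1 fell by 3.90 (SE 0.16) on the log2 scale in WT, a 14.97-fold difference, and by 3.02 (SE 0.11) in cKO, with limma adjusted p-values of 0.00239 and 0.00149. Its centred values were -2.45 and -1.82, and 9.82% of all genes in WT and 14.6% in cKO had a lower log2 fold change. Ncoa4 fell by 3.05 (SE 0.15) in WT and fell by 2.36 (SE 0.09) in cKO. Calcoco1 fell by 2.80 (SE 0.16) and 2.40 (SE 0.12), and Bnip3l by 2.46 (SE 0.17) and 2.22 (SE 0.09). After centring these 3 genes had -1.60, -1.35 and -1.0 in WT and -1.16, -1.20 and -1.01 in cKO.

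Tollip, Bnip3 and Fundc1 lay near or above the median gene, so their direction depended on the scale. Tollip had -0.42 in WT and -0.44 in cKO, not called, and 1.03 and 0.77 after centring, both called higher. Bnip3 had -0.52 in WT, not called, and fell by 0.78 in cKO, a call lost without cKO replicate 3 (-0.86) or 4 (-0.70) at 4 h, while its centred values were 0.93 (called) and 0.42. Fundc1 fell by 1.18 (SE 0.25) in WT and 1.12 (SE 0.08) in cKO and had 0.28 and 0.08 after centring, not called. The WT call of Fundc1 was lost without WT replicate 1 (-1.19) or 2 (-1.16) at 0 h. With quantile normalization Fundc1 (-0.52 in WT and -0.51 in cKO) and Bnip3 in cKO (-0.20) were not called.

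**Figure D4:**
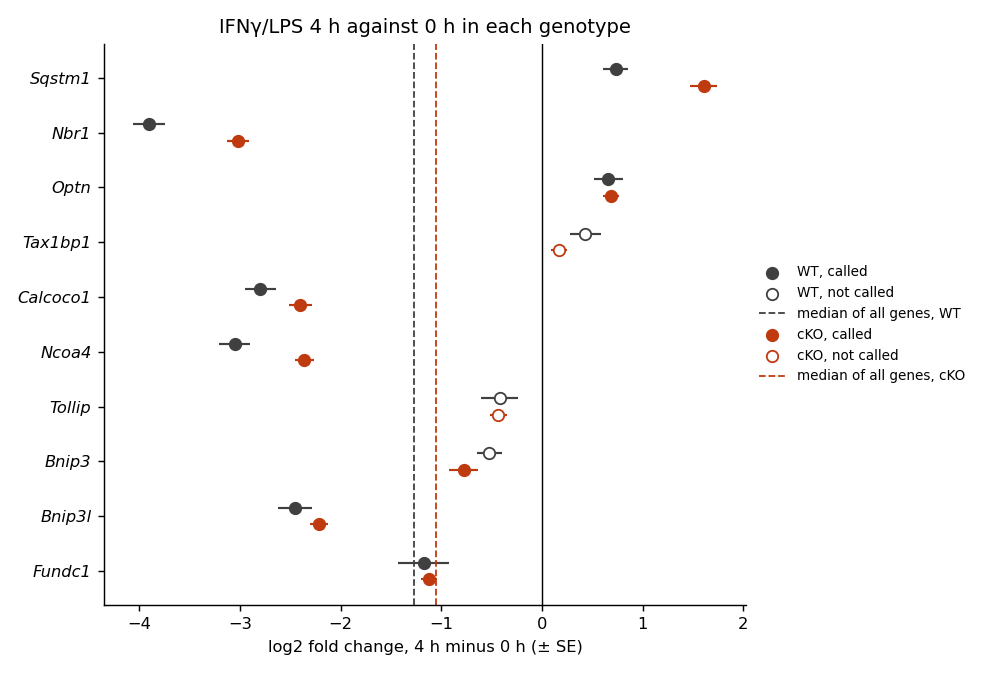
Log2 fold change of 4 h against 0 h for each receptor gene in WT (grey) and cKO (red), with standard errors as bars. Filled points were called, and the dashed lines are the medians of all genes (-1.27 and -1.05). Sqstm1, Optn and Tax1bp1 lie right of 0, and Nbr1, Calcoco1, Ncoa4 and Bnip3l lie left of the dashed lines.

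The ATG8 proteins are the partners that the receptors hold on the autophagosome. Of their 5 genes 1, Map1lc3b, was called higher in cKO at 4 h (20.8% of all genes), with a mean coverage of 492 in WT and 1153 in cKO, a log2 fold change of 1.23 (SE 0.10, limma adjusted p = 0.0466) and 0.89 after centring. The other 4 were not called at 4 h, with 0.53 for Map1lc3a, 0.49 for Gabarap, 0.57 for Gabarapl1 and 0.28 for Gabarapl2, and at 0 h 0 of the 5 were called. With stimulation all 5 were called lower in both genotypes on the deposited scale (55.1% of all genes in WT and 53.2% in cKO), from -0.60 (Gabarap) to -2.40 (Gabarapl1) in WT. After centring Gabarapl1 alone stayed lower (-0.95 in WT, -0.81 in cKO) and Gabarap turned higher (0.85 and 0.59), beside 22.4% and 23.2% of all genes lower and 33.5% and 32.7% higher.

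Among 18 other autophagy receptors tested at 4 h, 4 rose and 1 fell in cKO, beside 20.8% and 4.17% of all genes, with a median log2 fold change of 0.36 against 0.31 for all genes. After centring 0 were higher and 2 lower (10.4% and 9.9% of all genes). Atl3 (0.85), Retreg2 (0.79) and Retreg3 (0.77), proteins of the endoplasmic reticulum membrane, had the largest rises, and Nipsnap1, a mitochondrial protein that recruits receptors, fell by 0.79. At 0 h 1 of 19 was called, Nlrx1, which fell by 0.80 (5.61% of all genes were called lower). Of these receptors 16 of 18 were called lower with stimulation in WT (55.1% of all genes) and 15 of 18 in cKO (53.2%), and after centring 5 were lower and 5 higher in WT (22.4% and 33.5% of all genes) and 4 lower and 4 higher in cKO (23.2% and 32.7%). Nlrx1, Ccpg1 and Retreg3 fell the most in WT, with -3.42, -2.62 and -2.6.

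The receptor regulators are kinases, ubiquitin ligases and adaptors that act on the receptors, and 7 of 25 rose and 0 fell in cKO at 4 h, beside 20.8% and 4.17% of all genes, with a median of 0.31. Src, a kinase that phosphorylates Fundc1, rose by 1.26 (SE 0.15), Ulk1, the autophagy kinase, by 1.15 (SE 0.13), and Pptc7, a mitochondrial phosphatase that lowers Bnip3 and Bnip3l, by 1.11 (SE 0.13). After centring 3 were higher and 1 lower (10.4% and 9.9% of all genes). At 0 h 2 of 25 were called higher (8.99% of all genes), Traf3 by 1.42 and Pptc7 by 0.69. With stimulation in WT 8 rose and 12 fell (11.9% and 55.1% of all genes), and after centring 14 were higher and 5 lower (33.5% and 22.4%), so the balance turned with the scale. On the deposited scale the largest changes were those of Src (4.28), Tank (2.53) and March5 (2.31), a ubiquitin ligase of Fundc1, against Fbxl4 (-3.43), a ligase component that lowers Bnip3 and Bnip3l, Ulk1 (-3.30) and Pink1 (-3.01).

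Of the 41 genes of the core autophagy machinery 15 were called higher in cKO at 4 h (20.8% of all genes) and 0 lower (4.17%), and 11 higher after centring (10.4%), with a median of 0.48. Atg4c (1.84, SE 0.26), Ulk2 (1.61, SE 0.20) and Atg13 (1.23, SE 0.13) had the largest rises. At 0 h 6 of 41 were called higher (8.99% of all genes) and 2 after centring (7.25%), led by Atg12 (0.82) and Vmp1 (0.74). With stimulation 32 of 41 were called lower in WT (55.1% of all genes) and 31 of 41 in cKO (53.2%), led by Plekhm1, Tecpr1 and Rubcn, with -4.85, -4.31 and -4.02 in WT. After centring 19 were lower and 11 higher in WT (22.4% and 33.5% of all genes).

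Sqstm1 is known both as a target of the transcription factor NRF2 and as a regulator of its inhibitor, and 11 NRF2 genes were followed beside it. At 4 h 5 of 11 were called higher in cKO (20.8% of all genes) and 0 lower, and 5 were higher after centring (10.4%), with a median of 1.04 against 0.31 for all genes. Srxn1, which repairs peroxiredoxins, had a mean coverage of 119 in WT and 742 in cKO, a log2 fold change of 2.64 (SE 0.15, limma adjusted p = 0.0328). The cystine transporter Slc7a11 rose by 1.81 (SE 0.14) and the glutathione synthesis subunit Gclm by 1.64 (SE 0.17). At 0 h Slc7a11 was the 1 gene of the list that was called (8.99% of all genes were called higher), by 2.51 (SE 0.29), and the median was 0.03. In the interaction 4 of 11 were called in the direction of a larger difference at 4 h (13.5% of all genes), among them Srxn1 (2.5), Gclm (1.65) and Hmox1 (1.37). Slc7a11 had -0.70, not called. After centring 4 were higher (7.47% of all genes) and 1, Slc7a11 (-0.97), was lower (8.85%).

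Ferritin, the cargo of Ncoa4, and other iron genes formed a list of 8, of which 6 were called higher in cKO at 4 h (20.8% of all genes) and 0 lower, and 3 higher after centring (10.4%). The transferrin receptor Tfrc had a mean coverage of 145 in WT and 913 in cKO (log2 fold change 2.69, SE 0.29), the iron exporter Slc40a1 32.7 and 112 (1.78, SE 0.11), and the ferritin light chain Ftl1 85870 and 219098 (1.35, SE 0.10). At 0 h Tfrc was called, by 2.46. In the interaction 4 of 8 were called with a larger difference at 4 h (13.5% of all genes), Slc40a1 (1.69), the ferritin heavy chain Fth1 (1.05), Ftl1 (0.77) and Aco1 (0.63). After centring 1 was called higher, Slc40a1 (1.42), and 1 lower, Ireb2 (-0.67), beside 7.47% and 8.85% of all genes. With stimulation in WT, where Ncoa4 fell by 3.05, 6 of the 8 were called lower (55.1% of all genes) and 0 higher, led by Slc40a1, which fell by 7.33, Tfrc by 3.30 and Ftl1 by 2.41. After centring 4 were lower and 3 higher (22.4% and 33.5% of all genes), the higher ones being the metal transporters Slc11a1 (0.64) and Slc11a2 (1.62) and the iron regulatory protein gene Ireb2 (1.12).

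Of 15 hypoxia targets, followed because Bnip3 and Bnip3l belong to that response, 3 were called higher in cKO at 4 h (20.8% of all genes), the glycolytic enzymes Aldoa (0.84) and Eno1 (0.73) and the oxygen sensor Egln1 (0.70), while after centring 0 were higher and 1 lower (10.4% and 9.9%). Their median of 0.11 was below that of all genes. At 0 h 1 of 15 was called, Slc2a1, a glucose transporter, which fell by 0.64 (5.61% of all genes were called lower). With stimulation in WT Hif1a (2.2), Slc2a1 (1.63) and Pgk1 (0.87) rose and 9 genes fell (11.9% and 55.1% of all genes), led by Mxi1 (-3.02). After centring the balance turned, with 8 higher and 2 lower (33.5% and 22.4%).

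**Figure D5:**
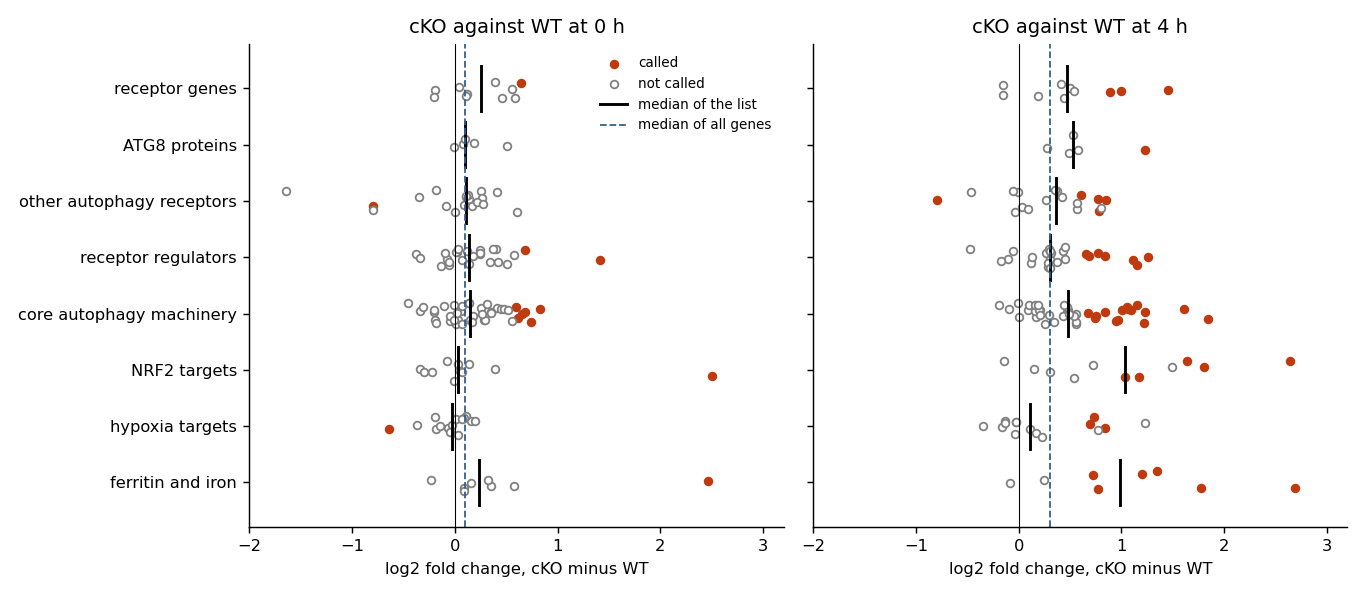
Log2 fold change of cKO against WT for each gene of the 8 lists at 0 h and 4 h, with called genes filled red, the list median as a black bar and the median of all genes as a dashed line. At 4 h the medians of the NRF2 list (1.04) and the iron list (0.99) lie farthest right, beside 0.47 for the receptor genes. Genes of 2 lists, such as Ulk1, are drawn in both.

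Some of these values can hold reads of other loci, because the library kit does not mark strand and copies exist. Bnip3 matches 5 other annotated genes over at least 300 bases at 95% identity or more. Among them, Gm45507 lies over Bnip3 itself on the opposite strand and is not a copy elsewhere. Bnip3l matches 1 (Bnip3l-ps, 99.4% identity) and Ncoa4 matches 1 (Gm6768, 99.9%). The levels of Bnip3, Bnip3l and Ncoa4 are therefore uncertain. No such match was found for the other 7 genes. Optn overlaps the antisense gene 4930551O13Rik, whose coverage was 0 to 16.95, and the end of Sqstm1 overlaps Mrnip in GENCODE, whose coverage was 1.59 to 29.5, both far below the receptor gene. Opposite-strand genes also lie over Bnip3 (Gm45507, over 3712 bases, and Gm18258) and over Tax1bp1 (Gm43967 and Gm43966). None of these is among the symbols with a coverage value, so the reads they may add are not known.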

How the data were processed

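RNA-seq of 8 samples of BMDMs (4 groups of 2) was used. Each sample pooled 2 mice, and whether a genotype’s 0 h and 4 h samples came from the same mice is not stated in the sources used here. The p-values measure the spread between these samples. Reads were aligned by the authors with HISAT2 2.2.1 and RefSeq genes quantified with StringTie 2.1.7 on mm10, per the labels and methods. The authors deposited a coverage signal per gene symbol, which the tables do not name. It was read from the values: times transcript length, 29.0% of 5811 low values were whole numbers within 0.02, against 5.37% with the length changed by 7 bases. The labels name the stimulus for the 0 h samples too, and these were grouped by their titles. Read numbers cannot be recovered, so no counting interval was computed. The authors' fold changes, p-values and classes were not used, and 0 columns of per-sample values were left out.

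limma 3.58.1 (R 4.3.3) was run on log2(coverage + 0.1) on the deposited scale, over genes with a mean of at least 0.5 in the samples compared. Fold changes are on that scale, which understates changes of low genes. Genes past a 1.5-fold change with a p under 0.05 before adjustment were called, which is the rule of the study, and Benjamini-Hochberg adjusted p-values were given beside it. For 1 gene in 2 samples against 2, the smallest two-sided p of an exact permutation test is 0.333. The script was tested on simulated data. The members and lists were chosen with earlier results of these data known. Named were all 10 receptor genes, Nudt21, the 5 ATG8 genes, and of each list at most the 3 called genes with the largest rise and the 3 with the largest fall, while markers, Aco1, Slc11a1, Slc11a2, Ireb2 and the interaction of Slc7a11 were chosen for naming after their values were seen. Other settings tried were a pseudocount of 1, no filter, other scalings (median-centring, equal total coverage, quantile normalization), a fit of all 8 samples, a replicate block and leaving out each sample. Positions, 3′UTRs and copies (blastn 2.17.0) were taken from GENCODE M21 (GRCm38), in which 20726 of 21080 symbols were found, and promoters from RefSeq on GRCm38. Protein sequences and 3′UTR usage were not analysed here, and some marker genes are not reported here.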

Additional observations from a re-analysis of the deposited data

Results flagged for a closer look

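On the deposited scale 3 receptor genes were called in the interaction of genotype and time in limma, where 13.5% of all genes were called in that direction. For Sqstm1 the change was 0.87 on the log2 scale, with cKO above WT at both times. For Nbr1 it was 0.88, also with cKO above WT at both times. For Ncoa4 it was 0.69, with both cKO samples below WT at 0 h and above WT at 4 h. These passed an unadjusted p under 0.05 and a fold above 1.5, and their limma adjusted p-values were 0.0720, 0.0749 and 0.0989. The call of Ncoa4 was lost after median-centring (0.43) and with quantile normalization (0.51), and that of Nbr1 with quantile normalization (0.58).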

How the results depend on the processing

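With 2 pooled samples per group the spread is poorly known, and read numbers are unknown. Over the alternatives other than leaving out a sample, 322 of 370 receptor gene values kept their direction and side of the threshold, 27 changed sign, 20 lost a call and 7 gained one, with 6 values that changed both sign and call. A pseudocount of 1, no filter and a fit of all 8 samples changed 0 calls of receptor genes. Sqstm1 and Nbr1 at 4 h were called under each scaling. The causes of the changes below were not tested.

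With an adjusted p under 0.05 in limma, 577 genes were called between genotypes at 4 h (3736 by the main rule), 167 at 0 h (2373) and 496 in the interaction (2851). Of the receptor genes 1 was then called at 4 h, 0 at 0 h and 0 in the interaction. At 0 h 0 receptor genes were called with median-centring, equal total coverage or quantile normalization, where 2313, 2308 and 2306 genes were called. In the interaction 1 was called with quantile normalization.

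Median-centring turned the sign of Tax1bp1 at 4 h (-0.146), Calcoco1 at 0 h (-0.0542), and Optn (-0.241), Bnip3l (-0.026) and Fundc1 (-0.209) in the interaction. In the stimulation comparison it gave 1.03 for Tollip, 0.928 for Bnip3 and 0.275 for Fundc1 in WT, and 0.767, 0.424 and 0.0832 in cKO. Equal total coverage turned Tax1bp1 at 4 h (-0.0208), Nbr1 (-0.0081), Calcoco1 (-0.0845) and Bnip3 (-0.0149) at 0 h, and Optn (-0.0649) and Fundc1 (-0.0328) in the interaction. Quantile normalization turned Tax1bp1 at 4 h (-0.0244), Nbr1 (-0.00889), Calcoco1 (-0.0893) and Bnip3 (-0.0167) at 0 h. It also turned Tollip (0.177) and Bnip3 (0.169) with stimulation in WT, Tax1bp1 in cKO (-0.156), and Optn (-0.218), Bnip3l (-0.108) and Fundc1 (-0.0104) in the interaction.

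With each sample left out in turn, the genes called between genotypes at 4 h ranged from 2243 (without cKO replicate 4) to 4577, and the receptor genes called at 0 h from 0 to 2. Signs turned for Fundc1 at 4 h (-0.424 to 0.125), Calcoco1 (-0.0482 to 0.124) and Bnip3 (-0.0184 to 0.234) at 0 h, and Optn (-0.0729 to 0.121), Tollip (-0.175 to 0.141) and Fundc1 (-0.218 to 0.33) in the interaction. Where 1 sample was left in a group, it was assumed to vary like the others.

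The replicate numbers recur at both times within a genotype, but whether they pair the samples is not stated. The difference between replicates at 0 h and at 4 h correlated with r = 0.020 in WT and 0.024 in cKO over 16284 genes. That is little shared deviation, and it cannot show whether the samples came from the same mice. With a replicate block 10331 genes were called with stimulation in WT and 10599 in cKO, and 2763 in the interaction, against 10722, 10850 and 2851 without it, and 7, 8 and 3 receptor genes as before.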
